A study of Mus musculus with 12 samples.

Results

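The enzymes of glycolysis, from hexokinase to lactate dehydrogenase, and the genes that low oxygen induces were followed in mouse mammary tumours driven by Myc, with and without the kinase Hunk. The list held 37 genes named for their place in the pathway, and a gene was taken through the probe sets annotated to its symbol alone. Of these, 32 had such a probe set, out of 12393 genes measured in this way, and where a gene had several, the one with the highest average signal was used. Gpi1, Pfkfb4, Eno1, Bnip3l and Ankrd37 had none and were not analysed here. The test took in 29 of the 32. Epas1 and Ppp1r3c fell below its filter, a mean signal above the median of all probe sets, and Gapdh was read from the array's own control probe sets, which stayed outside the fit.

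All 12 arrays held total RNA of mammary gland tumours from female FVB mice carrying MMTV-c-myc, a Myc transgene under the mouse mammary tumour virus promoter, which is active in mammary epithelium. In 6 the genotype was Hunk KO, an allele whose putative promoter and first exon had been replaced by a pGKneo cassette in E14 embryonic stem cells, and in 6 it was Hunk WT. The transgene was thus common to both groups, females had been mated, and no age is given in the sources used here. The labels number the arrays within a group without saying that each came from a separate mouse or tumour, so "tumour 4" below means the sample on 1 array, and p-values measure only the spread between these samples, which may in part be technical. Hunk signal, in log2 units, ranged from 2.60 to 3.06 (median 3.01) in the knockout and from 2.99 to 5.53 (median 4.02) in the wild type, above the array's background in 0 and 4 tumours; wild-type tumours 4 and 6 lay below it as well. Bulk RNA cannot tell fewer cells of a type from less RNA per cell.

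Glycolysis splits glucose into pyruvate in the cytosol, and several of its steps can be run by any of a few isoforms encoded by separate genes. Hypoxia-inducible factor (HIF) is a pair of an oxygen-labile alpha subunit, Hif1a or Epas1, with a stable partner. Prolyl hydroxylases of the Egln family mark the alpha subunit for destruction while oxygen is present, and without oxygen HIF binds a short core, ACGTG or GCGTG, at many of the genes below. Myc binds CACGTG, the E-box, which contains ACGTG on both strands, and it is known to raise several of the same glycolytic genes.

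The promoters of the 6 genes that passed the test are shown because they hold these motifs unequally. Each line gives 250 bases 5′ of the most upstream annotated start (RefSeq, GRCm38.p6), 5′ to 3′ on the gene's strand, and capitals mark every ACGTG or GCGTG on either strand, with overlapping matches joined. Their places are chr10:78009808-78010057 on the minus strand for Pfkl, chr7:126800448-126800697 on the minus strand for Aldoa, chr11:78322823-78323072 on the plus strand for Aldoc, chr19:41911621-41911870 on the plus strand for Pgam1, chr9:59656326-59656575 on the plus strand for Pkm and chr7:46845554-46845803 on the plus strand for Ldha.
Pfkl: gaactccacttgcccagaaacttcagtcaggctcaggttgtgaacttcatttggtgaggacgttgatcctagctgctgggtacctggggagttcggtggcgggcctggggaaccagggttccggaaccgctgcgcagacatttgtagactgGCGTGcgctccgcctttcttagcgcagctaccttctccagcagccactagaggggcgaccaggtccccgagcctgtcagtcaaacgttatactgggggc
Aldoa: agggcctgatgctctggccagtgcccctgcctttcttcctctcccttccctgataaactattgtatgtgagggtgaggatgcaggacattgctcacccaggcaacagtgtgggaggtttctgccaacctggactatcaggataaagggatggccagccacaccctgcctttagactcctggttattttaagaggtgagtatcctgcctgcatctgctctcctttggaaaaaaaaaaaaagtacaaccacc
Aldoc: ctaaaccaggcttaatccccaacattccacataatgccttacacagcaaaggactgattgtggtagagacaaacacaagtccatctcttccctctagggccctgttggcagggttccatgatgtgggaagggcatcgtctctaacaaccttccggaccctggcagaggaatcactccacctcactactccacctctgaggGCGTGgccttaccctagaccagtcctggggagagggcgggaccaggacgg
Pgam1: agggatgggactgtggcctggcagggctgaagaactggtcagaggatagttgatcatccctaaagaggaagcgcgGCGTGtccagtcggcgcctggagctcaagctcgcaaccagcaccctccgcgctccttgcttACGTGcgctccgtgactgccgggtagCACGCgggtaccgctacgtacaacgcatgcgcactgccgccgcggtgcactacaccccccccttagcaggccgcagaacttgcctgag
Pkm: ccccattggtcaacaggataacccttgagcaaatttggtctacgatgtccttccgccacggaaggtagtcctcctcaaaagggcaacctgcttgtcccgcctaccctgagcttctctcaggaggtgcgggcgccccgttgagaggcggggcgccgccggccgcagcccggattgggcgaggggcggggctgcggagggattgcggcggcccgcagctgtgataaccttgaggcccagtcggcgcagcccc
Ldha: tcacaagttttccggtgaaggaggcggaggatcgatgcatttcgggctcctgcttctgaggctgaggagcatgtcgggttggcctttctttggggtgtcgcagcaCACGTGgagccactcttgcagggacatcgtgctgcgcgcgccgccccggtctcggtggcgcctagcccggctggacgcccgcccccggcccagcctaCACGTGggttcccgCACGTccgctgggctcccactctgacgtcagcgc
In the Ldha window 3 runs of capitals stood at -145, -48 and -34 from the start, and 2 of them were the whole E-box. Pgam1 held 3 runs without an E-box, Pfkl and Aldoc 1 each, and Aldoa and Pkm 0. A promoter sequence was at hand for 34 of the 37 genes, and 29 of these (85.3%) held the core, against 38.6% of the 27025 promoters of all genes, while 6 (17.6%) held CACGTG against 6.0% of all. The list was chosen to hold genes that low oxygen induces, and the background was all annotated promoters rather than those of the measured genes. The excess is therefore no independent result. A match describes the sequence and is not a bound site.

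The main comparison asked how the members differed between tumours without and with Hunk. Pfkl, Aldoa, Pgam1, Pkm and Ldha rose by 1.49 to 1.99-fold in the knockout, Aldoc fell 3.58-fold, and 23 of the 29 tested members did not pass (limma, Benjamini-Hochberg adjusted p under 0.05 over all 6825 genes tested). The 6 calls compare with 3.34% of all genes tested, the 5 rises with 1.66% and the single fall with 1.68%. All 6 calls were glycolytic enzymes. The 11 tested hypoxia-induced genes outside glycolysis gave 0 calls by limma, with 8 at an unadjusted p under 0.05 (7 by the exact permutation test). The share of all genes at that unadjusted cut was not counted. Unadjusted counts, here and below, therefore have no background and are not read as a result about the genes. The 0 calls of 11 lie near the 3.34% of all genes tested, and a difference from the enzymes was not tested. The median log2 change was 0.53 for the 12 measured hypoxia-induced genes and 0.47 for the 14 measured enzymes. The median log2 change of the 32 measured members was 0.43, with 22 positive (68.8%) and 10 negative. That of all genes tested was 0.01, with 50.8% positive. The 32 include Gapdh, Epas1 and Ppp1r3c, which were not among the genes tested.

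**Figure D1:**
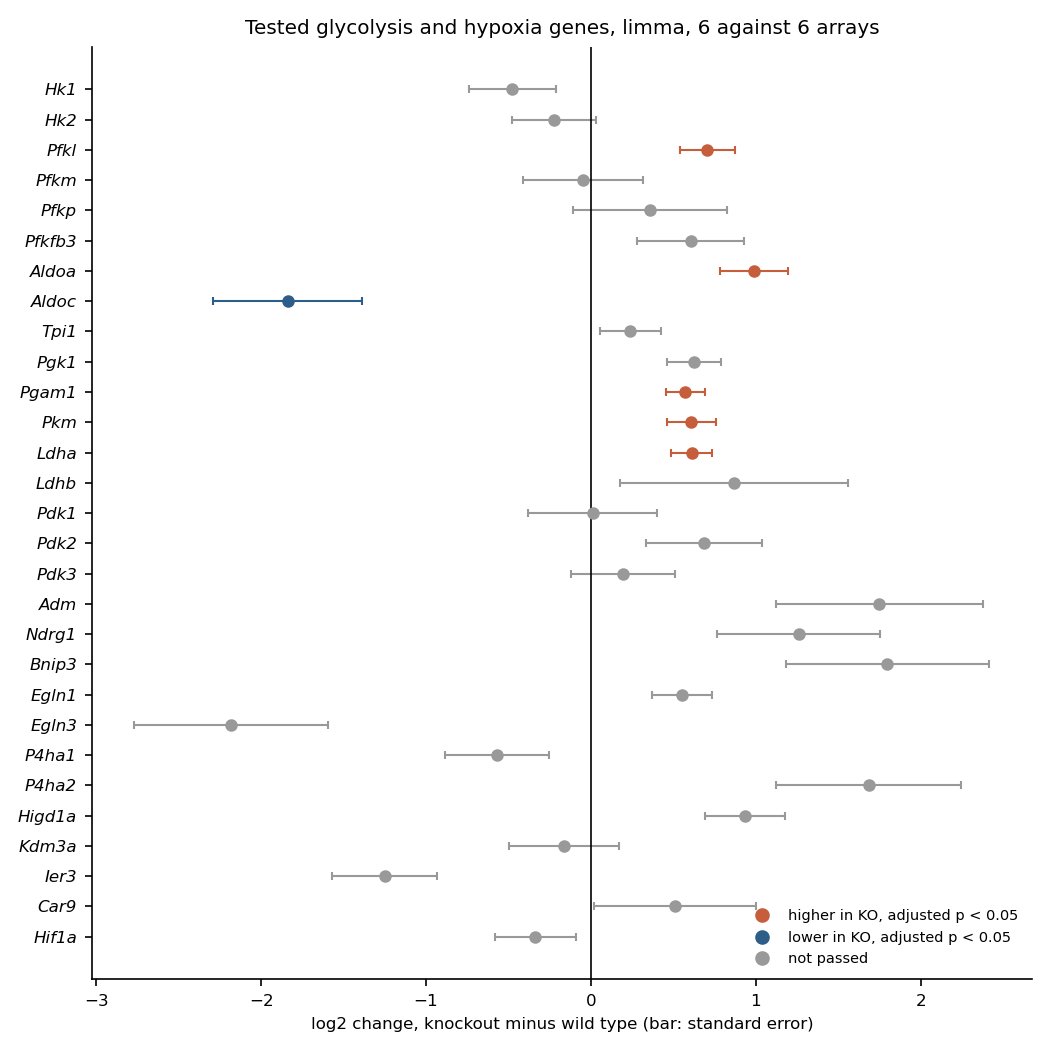
Log2 change (knockout minus wild type, horizontal axis) of the 29 tested members, listed from the top of glycolysis to the HIF pathway, with bars of 1 standard error. The 5 enzymes that rose sit between 0.57 and 0.99 with short bars, while Egln3, P4ha2, Bnip3 and Adm lie farther from 0 with long ones.

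Fewer members were called when some single arrays were left out or a pair was averaged. The arrays of knockout tumours 4 and 5 were the most alike within either group (SD of their difference over all probe sets 0.259, next pair 0.412), and averaging them as 1 sample left Ldha as the only call (adjusted p = 0.0414, limma). The changes of the others were then 0.70 for Pfkl, 0.96 for Aldoa, 0.56 for Pgam1, 0.56 for Pkm and -1.85 for Aldoc, with adjusted p-values of 0.0513 to 0.0879. Without knockout tumour 5 the count was 1, and it was 2 without knockout tumour 4 or wild-type tumour 4. It stayed at 6 without knockout tumour 1, 2 or 6 or wild-type tumour 1. The count over all genes tested fell as well, from 228 to 134 and 142 without knockout tumours 5 and 4. It was 92 without wild-type tumour 4 and 124 with the averaged pair.

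A sign of RNA quality and the mean of luminal markers also moved with the groups. The beta-actin control reads higher at its 3′ than at its 5′ end where RNA is degraded. This 3′ excess averaged 1.51 ± 0.15 (SD, n = 6) in knockout tumours against 1.29 ± 0.05 (SD, n = 6) in wild-type ones (exact two-sided permutation p = 0.0108). That of the Gapdh control averaged 0.20 ± 0.08 (SD, n = 6) against 0.09 ± 0.08 (SD, n = 6) (exact two-sided permutation p = 0.045). With the beta-actin excess as a covariate 1 member, Aldoc, was called (log2 change -2.91, adjusted p = 0.0372), beside 1.05% of all genes tested. The rises of the 5 enzymes were then 0.43 to 1.31 on the log2 scale, none of them past the threshold (adjusted p 0.0582 to 0.370). The mean level of 9 luminal epithelial markers ran from 10.04 to 10.80 in the knockout and from 9.12 to 9.92 in the wild type. The groups did not overlap (exact permutation p = 0.0022). With this mean as a covariate 0 members and 2 of all genes passed. Because the mean separates the groups, this fit cannot tell its part from that of genotype, and the lost calls decide nothing about cell make-up. The log2 changes were then 0.91 for Pfkl, 1.38 for Aldoa, 0.67 for Pgam1, 0.69 for Pkm, 0.57 for Ldha and -2.01 for Aldoc (adjusted p 0.330 to 0.511). Of these markers Krt19 (log2 change 4.08) and Cd24a (0.87) rose, and Muc1 changed by 2.35 (adjusted p = 0.108). Krt18, the most abundant, had a log2 change of -0.17 (adjusted p = 0.802). Krt8, Cldn3, Cldn7, Cdh1 and Epcam changed by 0.39, 0.52, 0.21, 0.14 and -0.19, none past the threshold. The shift of the mean thus lies mostly in a few of its genes. The part of RNA quality and of cell make-up in the members' changes was not tested beyond these fits. Centring each array on its median gave 68 higher and 126 lower genes in place of 113 and 115, with 2 members called, Aldoa up and Aldoc down.

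Other cell types were looked for through markers. Endothelial markers were near the floor, with 6 of 9 at or below background on every array, Pecam1, Cdh5 and Kdr among them, and Eng, the most abundant, had a log2 change of 0.03. Of 9 skeletal muscle markers only Pvalb was at background throughout, and their mean level was 6.85 in knockout tumour 3 and 4.24 in wild-type tumour 1 against 2.74 to 3.25 elsewhere. Acta1, the most abundant of them, had a change of 0.29 (adjusted p = 0.927). Adipocyte markers averaged 3.55 to 5.98 in the knockout and 3.15 to 4.03 in the wild type (exact permutation p = 0.0281), with Cidec, Lipe and Retn at background on every array and Fabp4 changed by 1.51 (adjusted p = 0.221). Fibroblast markers averaged 6.05 to 6.87 and 5.81 to 6.43 (exact permutation p = 0.0217), with Dcn, Lum and Pdgfra at background and Col3a1 at 0.94 (adjusted p = 0.0688). Macrophage markers averaged 6.43 to 7.43 and 6.95 to 7.34, with Lyz2 at -0.18. Basal markers averaged 4.73 to 5.91 and 4.64 to 6.88, with Acta2 at 0.24, and red cell markers 3.04 to 3.19 and 2.99 to 3.11, with Hba-a1 and Alas2 at background on every array. Milk genes averaged 5.27 to 12.27 and 4.74 to 9.72, and 2 of 8 rose, Elf5 (log2 change 2.12) and Ltf (5.04). Csn3, the most abundant, had a change of -2.25 (adjusted p = 0.419), while the other milk genes had positive changes without a call. Cell division genes averaged 7.18 to 8.16 in the knockout and 7.98 to 8.47 in the wild type (exact permutation p = 0.00649), 3 of 9 fell, and Cdc20 changed by -0.82.

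At the entry to glycolysis the hexokinases, which trap glucose as its phosphate, did not pass. Hk1, the broadly expressed form, ran from 8.10 to 8.84 (median 8.49) in the knockout and from 7.76 to 9.43 (median 9.22) in the wild type, in log2 units, as are all levels here. Wild-type tumour 2 lay below every other array and wild-type tumour 3 inside the knockout range (log2 change -0.48, SE 0.27, adjusted p = 0.336, and adjusted p = 0.0477 with wild-type tumour 2 left out). Hk2, the form that many tumours induce, ran from 7.73 to 8.96 and from 7.97 to 9.11, and the groups lay over each other (log2 change -0.22, SE 0.25, adjusted p = 0.639).

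Phosphofructokinase commits the sugar to glycolysis, and of its 3 subunits the liver form rose while the muscle and platelet forms did not pass. Pfkl ran from 10.16 to 10.66 (median 10.48) in the knockout and from 9.06 to 10.04 (median 9.83) in the wild type. Every knockout tumour lay above every wild-type tumour, as in 3.15% of all genes tested, and the level was 1.63-fold higher (log2 change 0.70, SE 0.17, adjusted p = 0.0418). Its other probe set changed by 0.61 with overlapping groups. Pfkm ran from 6.19 to 7.37 in the knockout and from 5.63 to 8.09 in the wild type, without separation (log2 change -0.05, SE 0.36, adjusted p = 0.951). Pfkp spread over more than 2 log2 units in each group (log2 change 0.36, SE 0.47, adjusted p = 0.682). Pfkfb3, which makes the activator of phosphofructokinase, changed by 0.61 (SE 0.33, adjusted p = 0.319).

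Aldolase cleaves the 6-carbon sugar, and its isoforms changed in opposite directions. Aldoa, the widely expressed and muscle form, ran from 11.90 to 12.72 (median 12.16) in the knockout and from 10.62 to 11.73 (median 11.32) in the wild type. The groups did not overlap, and the level was 1.99-fold higher (log2 change 0.99, SE 0.21, adjusted p = 0.0260). All 4 of its probe sets were higher by 0.92 to 1.22, and 3 of them separated the groups; each ends in _x_at, a kind that can match related transcripts. Aldoc, the brain form, ran from 5.31 to 8.09 (median 7.39) in the knockout and from 7.78 to 9.94 (median 9.06) in the wild type. It was lower in every knockout tumour than in 5 of the 6 wild-type tumours, with wild-type tumour 6 inside the knockout range and knockout tumour 1 far below the rest (log2 change -1.84, SE 0.45, adjusted p = 0.0465). A second Aldoc probe set was at or below background on every array. Triose phosphate isomerase, Tpi1, which interconverts the products of aldolase, did not pass (log2 change 0.24, SE 0.19, adjusted p = 0.479).

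In the lower part of the pathway, which yields the ATP, Pgam1 and Pkm rose. Gapdh ran from 12.70 to 13.45 in the knockout and from 12.86 to 13.54 in the wild type, with means of 13.07 ± 0.25 (SD, n = 6) and 13.07 ± 0.25 (SD, n = 6), and the groups lay over each other (exact two-sided permutation p = 0.978). These values are from its 3′ control probe set, and those for its 5′ end and middle changed by -0.11 and 0.05. Pgk1, the first ATP-yielding enzyme, ran from 11.66 to 12.37 (median 12.16) in the knockout and from 11.12 to 11.85 (median 11.45) in the wild type. Only knockout tumours 1 and 3 fell within the wild-type range, and the change just missed the threshold (log2 change 0.63, SE 0.16, adjusted p = 0.0588), and it passed when the array of knockout tumour 1 was left out (adjusted p = 0.0371) and when that of wild-type tumour 1 was (adjusted p = 0.0479). Its other probe sets changed by 0.49 and 0.50.

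Pgam1, phosphoglycerate mutase, ran from 11.30 to 11.98 (median 11.64) in the knockout and from 10.90 to 11.28 (median 11.03) in the wild type. The groups did not overlap, though knockout tumour 3 and wild-type tumour 3 almost met (1.49-fold, log2 change 0.57, SE 0.12, adjusted p = 0.0241). Pkm, the pyruvate kinase of most tissues, whose splice forms are not told apart here, ran from 11.85 to 12.44 (median 12.09) and from 11.23 to 12.05 (median 11.41). Wild-type tumour 5 alone lay inside the knockout range (1.52-fold, log2 change 0.61, SE 0.15, adjusted p = 0.0463).

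**Figure D2:**
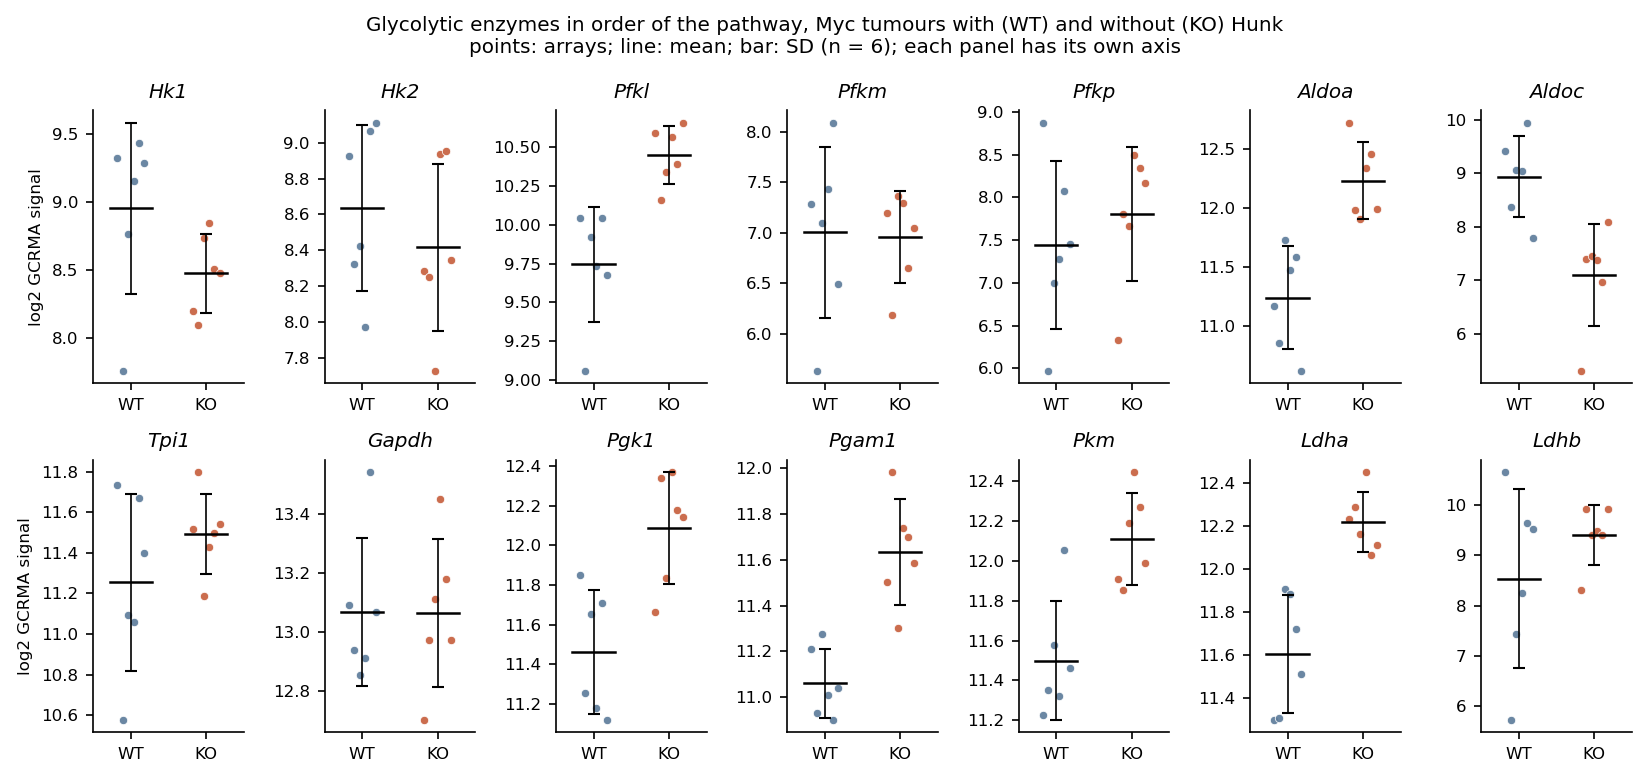
Log2 signal of the 14 measured glycolytic enzymes in pathway order, 1 point for each array, with the mean and SD of 6 wild-type (left) and 6 knockout (right) tumours and a separate vertical axis in each panel. The groups do not overlap for Pfkl, Aldoa, Pgam1 and Ldha, and Aldoc is the enzyme that fell.

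At the exit, lactate dehydrogenase turns pyruvate into lactate. Ldha, the subunit that HIF and Myc are known to induce, ran from 12.06 to 12.45 (median 12.20) in the knockout and from 11.30 to 11.91 (median 11.62) in the wild type, and each knockout tumour lay above each wild-type tumour (1.53-fold, log2 change 0.61, SE 0.12, adjusted p = 0.0241). Ldha was the only member called in all 12 fits with 1 array left out (adjusted p 0.0197 to 0.0488). Ldhb, the heart subunit, ran from 8.31 to 9.92 in the knockout and from 5.73 to 10.66 in the wild type. The wild-type range enclosed the knockout range, from wild-type tumour 2 at the bottom to wild-type tumour 1 at the top (log2 change 0.87, SE 0.69, adjusted p = 0.491).

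The other enzyme calls held less widely over the fits with 1 array left out. Aldoa was called in 10 of 12, not without knockout tumour 4 (adjusted p = 0.0529) or 5 (adjusted p = 0.0553), and Pgam1 in 10, losing the call with knockout tumour 5 left out (adjusted p = 0.0516) and with wild-type tumour 4 left out (adjusted p = 0.0600). Pfkl was called in 4 (adjusted p 0.0335 to 0.0894), Aldoc in 3 (0.0396 to 0.0976) and Pkm in 2 (0.0138 to 0.102), with the log2 change of each keeping its sign in all 12. Over these fits the change of Pfkl stayed between 0.57 and 0.76, that of Pkm between 0.54 and 0.72 and that of Aldoc between -2.07 and -1.48.

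Pyruvate dehydrogenase kinases turn off the entry of pyruvate into mitochondria, and 0 of the 3 passed by limma, also at an unadjusted p under 0.05 (0 by exact permutation). Pdk1, the HIF-induced form, ran from 7.55 to 9.58 and from 7.97 to 9.65 with no separation (log2 change 0.01, SE 0.39, adjusted p = 0.987; its sign turned with median centring, -0.05). Pdk2 changed by 0.69 on average (SE 0.35, adjusted p = 0.299) and Pdk3 of 0.20 (SE 0.32, adjusted p = 0.753).

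Whether isoforms of a step changed unequally was tested on the log2 difference of 2 family members within each array, over the 12 pairs that could be measured of 14 listed. In 3 pairs the difference changed (exact two-sided permutation test, adjusted over the 12 pairs). Aldoc minus Aldoa ran from -7.41 to -3.90 (median -4.77) in the knockout and from -2.84 to -1.64 (median -2.46) in the wild type. The groups did not overlap, and the Aldoc to Aldoa ratio was 7.10-fold lower (change -2.83, SE 0.54, exact permutation p = 0.0022, the smallest that 6 against 6 can give, adjusted p = 0.0130). Egln3 minus Egln1 ran from -3.59 to 0.04 (median -2.29) in the knockout and from -0.34 to 1.57 (median 0.74) in the wild type. Knockout tumour 2 lay within the wild-type range, and the ratio was 6.64-fold lower (change -2.73, SE 0.65, exact permutation p = 0.00433, adjusted p = 0.0173).

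P4ha1 minus P4ha2 ran from -1.04 to 1.59 (median 0.79) in the knockout and from 2.02 to 3.38 (median 2.86) in the wild type, without overlap. The ratio was 4.77-fold lower (change -2.25, SE 0.51, exact permutation p = 0.0022, adjusted p = 0.0130), and its size rests in part on background, since P4ha2 was below it in 2 of 6 wild-type tumours. The same 3 pairs passed with other probe set choices, with limma on the differences and in every fit with 1 array left out. With the beta-actin or the luminal covariate in limma, chosen after seeing the data, Aldoc minus Aldoa (-4.22 and -3.39) and P4ha1 minus P4ha2 (-2.61 and -3.39) passed, and Egln3 minus Egln1 did not (-2.09, adjusted p = 0.0929, and -2.64, adjusted p = 0.135).

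**Figure D3:**
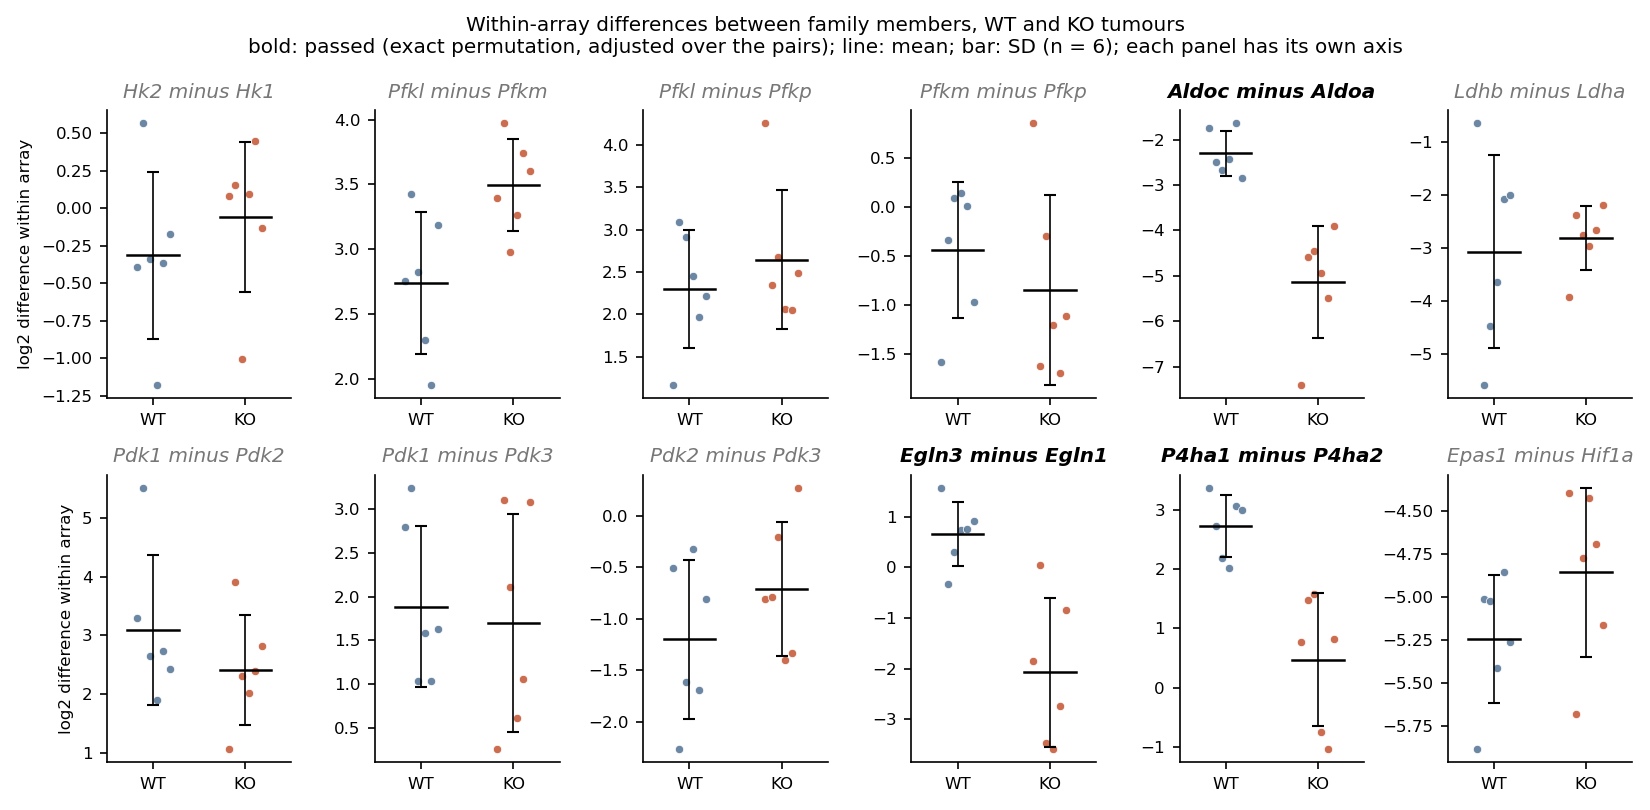
Log2 signal of 1 family member minus that of another on the same array, for 12 pairs, with 1 point per array and the mean and SD of 6 wild-type and 6 knockout tumours; the vertical axis differs between panels. Aldoc minus Aldoa, Egln3 minus Egln1 and P4ha1 minus P4ha2, in bold, are lower on average in the knockout. The groups overlap in every panel except Aldoc minus Aldoa and P4ha1 minus P4ha2.

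The other 9 pairs did not pass, which does not show that their members moved alike. Pfkl minus Pfkm changed by 0.75 (95% interval 0.16 to 1.35, exact permutation p = 0.0195, adjusted p = 0.0584), with adjusted p-values of 0.0455 and 0.0260 when knockout tumour 3 or wild-type tumour 2 was left out. Hk2 minus Hk1 changed by 0.25 (95% interval -0.43 to 0.93) and Ldhb minus Ldha by 0.26 (95% interval -1.49 to 2.01), the latter with Ldhb varying widely in the wild type. Pfkl minus Pfkp changed by 0.34 (95% interval -0.64 to 1.33) and Pfkm minus Pfkp by -0.41 (95% interval -1.50 to 0.68). The pairs of pyruvate dehydrogenase kinases changed by -0.68, -0.19 and 0.49, all with intervals that span 0. Epas1 was at or below background on all 12 arrays, so its difference from Hif1a (0.39, adjusted p = 0.369) follows Hif1a and the floor.

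Among the genes of the HIF pathway the alpha subunit and its hydroxylases did not pass on their own. Hif1a ran from 7.57 to 8.90 in the knockout and from 7.95 to 9.09 in the wild type, largely over each other (log2 change -0.34, SE 0.24, adjusted p = 0.449). Egln1, the main oxygen sensor, ran from 7.23 to 8.20 (median 7.96) and from 6.88 to 7.66 (median 7.33), with knockout tumour 1 alone inside the wild-type range (log2 change 0.55, SE 0.18, adjusted p = 0.125, and adjusted p = 0.0398 without knockout tumour 1). Egln3, the hydroxylase most strongly induced by HIF, ran from 4.42 to 7.80 (median 5.28) in the knockout and from 7.33 to 9.10 (median 7.87) in the wild type. Knockout tumours 1, 3, 4 and 5 lay at 4.42 to 5.38, well below every wild-type tumour, and knockout tumours 2 and 6 within the wild-type range (log2 change -2.18, SE 0.59, adjusted p = 0.0637, passing without knockout tumour 2, adjusted p = 0.0229, or 6, adjusted p = 0.0481). Its second probe set changed by -2.03.

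Collagen prolyl hydroxylases use the same chemistry on collagen in the endoplasmic reticulum. P4ha2 was 7.39 and 7.49 in knockout tumours 4 and 5, 5.58 in knockout tumour 6, and between 3.42 and 4.93 in all others (log2 change 1.68, SE 0.56, adjusted p = 0.126). The upper end of its knockout range is therefore held by the closely alike pair of arrays. P4ha1 ran from 4.90 to 6.63 and from 6.15 to 7.52, with knockout tumour 1 lowest (log2 change -0.57, SE 0.32, adjusted p = 0.336).

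Bnip3 and Higd1a act at mitochondria, the first in their removal and the second in respiration under low oxygen. Bnip3 ran from 7.29 to 9.84 (median 9.23) in the knockout and from 5.28 to 9.23 (median 7.24) in the wild type. Wild-type tumour 1, at 9.23, lay among the knockout tumours, and knockout tumour 3, at 7.29, among the wild-type ones (log2 change 1.80, SE 0.62, adjusted p = 0.136). Higd1a ran from 8.95 to 10.31 (median 9.53) and from 7.98 to 9.19 (median 8.63), with knockout tumour 3 alone inside the wild-type range (log2 change 0.93, SE 0.24, adjusted p = 0.0566, with adjusted p-values of 0.0443 and 0.0481 when knockout tumour 3 or wild-type tumour 1 was left out).

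The secreted vasodilator adrenomedullin, Adm, ran from 4.00 to 8.45 (median 5.80) in the knockout and from 3.67 to 4.77 (median 4.16) in the wild type, close to background. It was 8.45 in knockout tumour 6, 6.90 in 2, 5.84 in 3 and 5.77 in 1, while knockout tumours 4 and 5 lay at wild-type levels (log2 change 1.75, SE 0.63, adjusted p = 0.150). Ndrg1, a stress-induced regulator of cell differentiation, ran from 8.66 to 10.96 (median 10.01) and from 7.53 to 10.05 (median 8.69), and was highest in knockout tumours 6, 1 and 2 and lowest of the knockouts in 4 and 5 (log2 change 1.26, SE 0.50, adjusted p = 0.182). The 4 of its 5 probe sets that rose above background changed by 1.18 to 1.51, all with overlapping groups.

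Ier3, an immediate early gene, ran from 7.69 to 9.02 (median 7.77) in the knockout and from 8.46 to 10.25 (median 9.31) in the wild type. Knockout tumours 2 and 6 reached into the wild-type range, as they did for Egln3 (log2 change -1.25, SE 0.32, adjusted p = 0.0536, with adjusted p-values of 0.0379 and 0.0348 when knockout tumour 6 or wild-type tumour 3 was left out). The carbonic anhydrase Car9 was highest in knockout tumour 6, at 6.63, and wild-type tumour 1, at 5.96 (log2 change 0.51, SE 0.49, adjusted p = 0.577). Kdm3a, a histone demethylase that HIF induces, had lower mean signal by 0.16 in the knockout (change -0.16, SE 0.34, adjusted p = 0.803). Ppp1r3c, which brings a phosphatase to glycogen, was above background in knockout tumour 1 and wild-type tumours 1 and 3 only.

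**Figure D4:**
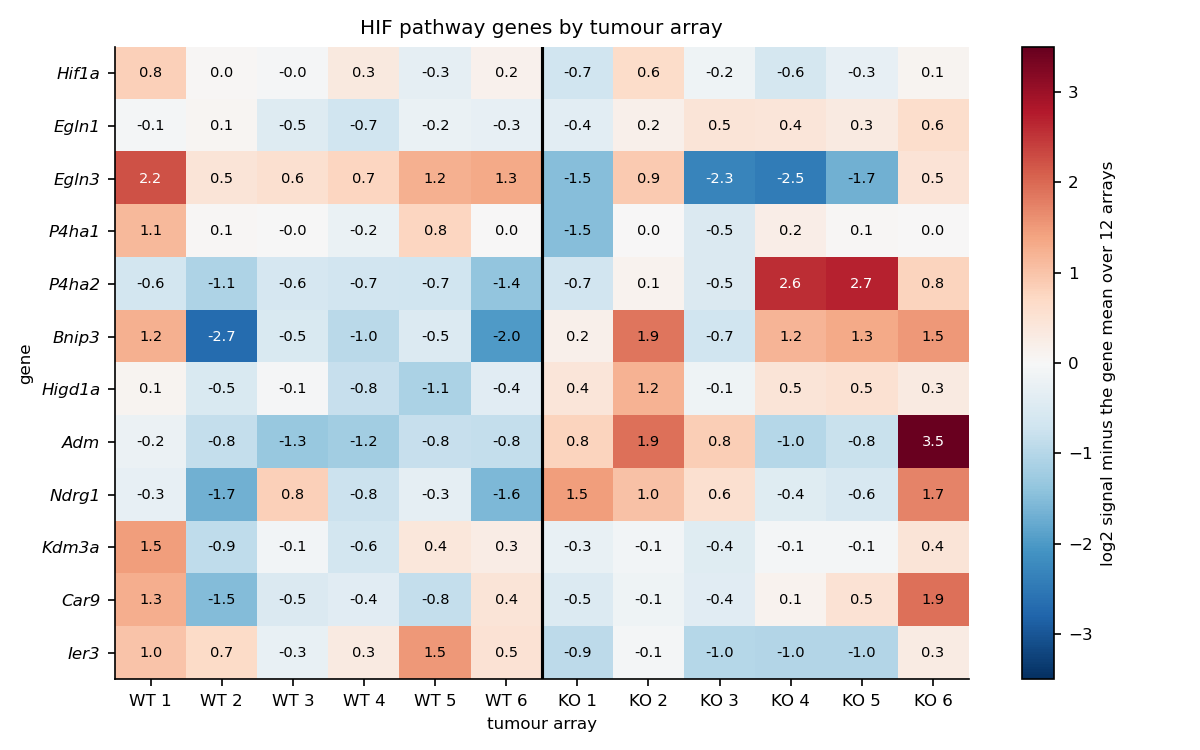
Log2 signal of 12 HIF pathway genes minus each gene's mean over the 12 arrays, with wild-type tumours left of the line and knockout tumours right of it; red is above and blue below the gene's mean. Adm and Ndrg1 are above their means in knockout tumours 1, 2, 3 and 6, P4ha2 is highest in 4 and 5, and Egln3 is low in 1, 3, 4 and 5.

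The members varied between tumours of 1 genotype as well. Of the 12 hypoxia-induced genes outside glycolysis, 4 were at their highest in knockout tumour 6 and 3 in wild-type tumour 1, and 5 were at their lowest in wild-type tumour 2. Averaged as deviations from each gene's mean, these 12 genes stood at 0.91 in knockout tumour 6 and 0.77 in wild-type tumour 1, and at -0.74 in wild-type tumour 2. The 14 glycolytic enzymes averaged -0.85 in wild-type tumour 2, where 6 of them were at their lowest. In the other tumours they averaged from -0.25, in knockout tumour 1, to 0.40, in wild-type tumour 5.

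The wider pathway was read from 6 further lists of 96 genes, of which 81 were measured and 62 tested. Among the 62 there were 6 rises and 1 fall, 55 not passing, with a median log2 change of 0.34 against 0.01 over all genes tested. The pentose phosphate pathway, which branches from glycolysis at glucose 6-phosphate and yields NADPH and ribose, held 3 of the 6 rises among 6 tested genes, where 1.66% of all genes tested rose. They were transketolase, Tkt (1.95-fold, adjusted p = 0.00187), the phosphogluconate dehydrogenase Pgd (2.27-fold, adjusted p = 0.00452) and transaldolase, Taldo1 (2.33-fold, adjusted p = 0.0220). Each was called in all 12 fits with 1 array left out, but only Taldo1 with the beta-actin covariate, and none of the 3 with the luminal one. Taldo1 was not called with the replicate number as a block in the fit. In none of these genes did the groups overlap: Tkt, for example, ran from 13.28 to 13.85 in the knockout and from 12.16 to 12.91 in the wild type.

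Around pyruvate, 1 of 7 tested genes rose, the pyruvate carboxylase Pcx (1.91-fold, adjusted p = 0.0366). Pcx was called in 5 of the 12 fits with 1 array left out, those without knockout tumours 1, 3 or 4 or wild-type tumours 1 or 2, and it was not called with tumours 4 and 5 of the knockout averaged, with no filter, with median centring or with the luminal covariate. Of 11 other transport, glycolysis and branch genes 0 passed by limma, with 5 at an unadjusted p under 0.05 (2 by exact permutation). The lactate carriers Slc16a1 and Slc16a3 had log2 changes of -0.80 (adjusted p = 0.0793) and 1.18 (adjusted p = 0.0853), the glycerol phosphate dehydrogenase Gpd2 one of 0.51 (adjusted p = 0.228) and the glucose carrier Slc2a1 one of 0.76 (adjusted p = 0.249). Of 7 genes of glycogen and gluconeogenesis 0 passed by limma, with 2 at an unadjusted p under 0.05 (2 by exact permutation). The glycogen phosphorylase Pygl had a change of -1.83 (adjusted p = 0.157) and the carboxykinases Pck1 and Pck2 of 0.40 (adjusted p = 0.230) and -0.83 (adjusted p = 0.387).

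Of 25 other hypoxia-induced genes, Ddit4 and Ero1a rose, Errfi1 fell and 22 did not pass. Ddit4, an inhibitor of mTORC1, ran from 10.09 to 10.90 in the knockout and from 7.64 to 9.87 in the wild type (adjusted p = 0.00808). Ero1a, an oxidase of the endoplasmic reticulum, ran from 9.37 to 9.76 and from 8.20 to 8.89 (adjusted p = 0.00394). Errfi1, an inhibitor of the EGF receptor, ran from 7.55 to 8.03 and from 8.73 to 9.97 (3.14-fold lower, adjusted p = 0.00312). Ddit4, Ero1a and Errfi1 were each called in all 12 fits with 1 array left out, but not with the beta-actin or the luminal covariate. Ddit4 and Ero1a were also not called with the replicate number as a block in the fit. The angiogenic factor Vegfa, the classical HIF target, had a log2 change of 1.04 (adjusted p = 0.0876). Of 6 oxygen sensing genes and HIF partners 0 passed by limma, with 0 at an unadjusted p under 0.05 (1 by exact permutation): Elob and Cul2, parts of the ubiquitin ligase that removes HIF, changed by 0.41 (adjusted p = 0.272) and 0.54 (adjusted p = 0.296), and Egln2 by 0.32 (adjusted p = 0.286). These lists, like the members, were drawn up with earlier results of the same arrays known, so their counts are no independent evidence of a direction.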

How the data were processed

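The deposited values are log2 GCRMA signals of 22690 probe sets on 12 arrays; GCRMA is named by the submitters' processing notes without a version, and other steps are not given in the sources used here. They were used as deposited, and 0 columns were left out. GCRMA pulls low signals to a floor. On each array the background was the highest of 27 Bacillus control probe sets, 3.45 to 4.00. Symbols came from the platform annotation, updated by gene identifier in RefSeq (20364 of 20393 single-symbol probe sets matched).

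Probe sets with a mean above 3.98 (11313) were fitted with limma 3.58.1 (lmFit, eBayes with trend) in R 4.3.3, genotype as the only term, and p-values were Benjamini-Hochberg adjusted over 6825 genes. Ppp1r3c, Epas1 and Hunk lay below the filter. Gapdh, a control probe set, and isoform differences were tested by exact two-sided permutation over arrays. Intervals use the SD between arrays. Named were all members and the most abundant marker of each cell type. From the lists, genes past the threshold or up to 3 with the smallest adjusted p were named. Slc2a1, Vegfa, Elf5, Ltf, the luminal markers other than Krt18 and markers at background were named after their values were seen. The members and lists were chosen with earlier results of these data known. The steps were tested on simulated data. Figures used matplotlib 3.10.9.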

Additional observations from a re-analysis of the deposited data

Results flagged for a closer look

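Of 64 groups of 6 arrays, 32 members in each genotype, 5 held an array far from the others by Dixon's test, which flags about 1 in 20 groups by chance. Pfkl was 9.06 in wild-type tumour 2 against 9.68 to 10.04 in the other wild-type tumours. Gapdh was 13.54 in wild-type tumour 5 against 12.86 to 13.09. Ldhb was 8.31 in knockout tumour 1 against 9.41 to 9.92. Ppp1r3c was 6.68 in knockout tumour 1 against 2.88 to 3.12 in the other knockout tumours, and 5.70 in wild-type tumour 1 against 2.71 to 3.74 in the other wild-type tumours.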

How the results depend on the processing

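The count of members called was 6, with 29 tested. It was 3 of 31 tested with no filter and 10 of 23 tested above the 75th percentile. With 29 tested it was 2 with median centring, 12 with array weights, 1 with the beta-actin covariate and 0 with the luminal covariate. It was 1 with knockout tumours 4 and 5 averaged, and 1 to 6 with 1 array left out. The count over all genes, 228 of 6825, was 113 of 12393 with no filter and 174 of 3582 above the 75th percentile. It was 194 with median centring, 404 with array weights, 72 and 2 with those covariates and 124 with the averaged pair. With 1 array left out it was 92 to 209 (142, 134 and 131 without knockout tumours 4, 5 and 6, 92 and 149 without wild-type tumours 4 and 5). Of the wider lists, 7 genes were called, against 12 with array weights, 3 and 0 with the covariates (the 3 include 2 of the 7, Pcx and Taldo1) and 6 to 10 with 1 array left out. The exact permutation test on each gene's own variance, adjusted over all genes, gave 0 calls for members, wider lists and all genes; 14 members had an unadjusted p under 0.05, and even 0.00216, the smallest that 6 against 6 can give, stayed above the threshold once adjusted. The replicate number as a block left 0 members, 68 genes and 4 wider genes. The deviations of same-numbered arrays from their group means correlated at -0.02 to 0.14. Knockout arrays 2, 5 and 6 correlated best with the wild-type array of their own number, and knockout arrays 1, 3 and 4 did not. The labels give no pairing, and whether the arrays were paired was not tested further. The block kept all 3 isoform pairs, which also passed in the other alternatives planned for them, with 3 to 4 pairs when 1 array was left out. Of alternatives chosen after seeing the data, array weights gave 3 pairs and each covariate 2, without Egln3 minus Egln1; median centring cannot alter a within-array difference.

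No called member changed sign in any alternative. Signs turned for members and pairs that were not called: Hk2 (array weights 0.0449, luminal covariate 0.50), Pfkm (quantile normalization 0.0094, luminal covariate 0.39, 1 array left out -0.32 to 0.17), Pfkp (beta-actin covariate -0.33), Pdk1 (median centring -0.0463, beta-actin covariate -0.19, luminal covariate -0.33, 1 array left out -0.20 to 0.23), Pdk3 (1 array left out -0.04 to 0.35), Kdm3a (array weights 0.0013, luminal covariate 0.34, 1 array left out -0.36 to 0.11), the pairs Pfkm minus Pfkp (beta-actin covariate 0.30), Pfkl minus Pfkp (array weights -0.0132, luminal covariate -0.48) and Ldhb minus Ldha (beta-actin covariate -0.33), and, with 1 array left out, Ldhb minus Ldha (-0.25 to 0.74) and Pdk1 minus Pdk3 (-0.47 to 0.11). The cause of these shifts was not tested. Signals near background limit Adm, P4ha2, Car9, Ppp1r3c and Epas1. Precision is limited by having 6 arrays a group.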
